A study of Mus musculus with 16 samples.

Results

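Macrophage genes were followed in RNA-seq data of whole pancreatic islets from the 8 founder strains of the Diversity Outbred mouse population. The 10 genes, Adgre1, Csf1r, Cd68, C1qa, C1qb, C1qc, Lyz2, Itgax, Spi1 and F13a1, were taken by name from the 54146 genes that each library table lists. The strains were 129S1_SvImJ (129), A_J (AJ), C57BL/6J (B6), CAST_EiJ (CAST), NOD_ShiLtJ (NOD), NZO_HlLtJ (NZO), PWK_PhJ (PWK) and WSB_EiJ (WSB). All mice were 26 weeks old and all received a high-fat diet, so no group on another diet serves as a control. Females and males of every strain gave 16 samples that hold 91 libraries. These were, for females and males in turn, 5 and 5 libraries of 129, 7 and 7 of AJ, 9 and 9 of B6, 6 and 8 of CAST, 5 and 5 of NOD, 3 and 1 of NZO, 1 and 4 of PWK, and 9 and 7 of WSB. The labels do not say whether the libraries of a sample came from separate mice. The p-values below therefore measure the spread between libraries, in an estimate for each gene that all strains of a fit share.

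Macrophages are phagocytic cells of the innate immune system, and resident macrophages are found in healthy islets, where they take up debris and present antigen. They depend on signals through the receptor Csf1r, whose ligands are Csf1 and Il34, and on PU.1, the transcription factor coded by Spi1. NOD mice are the classic model of autoimmune diabetes, in which leukocytes, macrophages among them, gather around and in the islets.

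Libraries held 16928552 to 35196145 expected counts (median 27485367). At these totals 3 counts, the floor used here for detection, correspond to 0.0852 to 0.177 CPM (counts scaled to a common library total), a limit that covers counting error only. Every one of the 10 genes was non-zero in all 91 libraries, and the lowest expected count of any of them was 5, for Spi1. The labelled tissue held its defining transcripts in all libraries, with 165800 to 570200 TPM (transcript abundance scaled for gene length and depth) summed over 7 beta cell genes outside NOD and 199000 to 409900 in NOD. In 12 libraries, namely 6 of 129, 4 of WSB and 2 of NOD (libraries 97 and 100), Xist and Y-linked counts opposed the sex label. Libraries of 129, NOD, NZO and PWK carry numbers from 66 to 100 and those of the other 4 strains carry numbers from 1 to 65. The labels mention 4 waves of animals, the libraries of wave 4 being made at another centre than the rest, without saying which library belongs to which, so number range and strain cannot be told apart between these sets of strains. Reads of all strains were aligned to the B6-based reference, and the effect of strain sequence differences on these levels was not tested.

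Surface proteins and receptors make up part of the 10 genes. Adgre1 (ENSMUSG00000004730.14, chr17:57358691-57483527, plus strand, GRCm38) codes for an adhesion receptor widely used to recognise mouse macrophages. Csf1r (ENSMUSG00000024621.15, chr18:61100598-61132149, plus strand) codes for the receptor through which macrophages survive and divide. Itgax (ENSMUSG00000030789.9, chr7:128129547-128150657, plus strand) codes for the integrin chain CD11c, which dendritic cells carry too. Cd68 (ENSMUSG00000018774.13, chr11:69664213-69666153, minus strand) codes for a glycoprotein of lysosomes, the compartments in which engulfed material is broken down.

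Secreted products make up most of the rest. C1qa (ENSMUSG00000036887.5, chr4:136895917-136898803), C1qb (ENSMUSG00000036905.8, chr4:136880129-136886187) and C1qc (ENSMUSG00000036896.5, chr4:136889804-136893065) stand side by side on the minus strand and code for the chains of C1q, the protein that starts the classical complement pathway. Lyz2 (ENSMUSG00000069516.8, chr10:117277331-117282321, minus strand) codes for lysozyme, which breaks down bacterial cell walls and is also made by monocytes and neutrophils. F13a1 (ENSMUSG00000039109.16, chr13:36867178-37050244, minus strand) codes for the A subunit of coagulation factor XIII, which crosslinks fibrin. Spi1 (ENSMUSG00000002111.8, chr2:91082390-91115756, plus strand) is the only transcription factor gene of the set. The strand setting of the counting was not given in the sources used here, and Csf1r and F13a1 overlap genes of the opposite strand, so reads of these overlaps cannot be assigned with certainty.

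RefSeq promoter sequences (GRCm38.p6) were matched for 6 of the 10 genes, with 7 promoters since F13a1 has more than one start. The 4 sequences shown are the 250 bases before the start, written 5′ to 3′ on the gene's strand, of 3 genes that moved together in NOD and of F13a1, which did not move with them. Capitals mark the letters GAGGAA, the core that PU.1 is known to bind, or TTCCTC, the same core on the opposite strand.
C1qb, chr4:136886201-136886450, minus strand: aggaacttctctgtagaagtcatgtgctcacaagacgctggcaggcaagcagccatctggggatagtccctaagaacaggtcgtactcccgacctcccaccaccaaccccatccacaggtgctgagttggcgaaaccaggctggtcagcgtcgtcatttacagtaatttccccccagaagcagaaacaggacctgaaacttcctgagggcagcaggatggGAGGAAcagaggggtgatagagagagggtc
C1qc, chr4:136892915-136893164, minus strand: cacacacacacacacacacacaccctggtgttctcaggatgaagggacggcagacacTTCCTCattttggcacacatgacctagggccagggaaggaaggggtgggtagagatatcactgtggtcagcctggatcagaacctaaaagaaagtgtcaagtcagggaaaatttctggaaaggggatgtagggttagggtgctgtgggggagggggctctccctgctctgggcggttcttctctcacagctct
Lyz2, chr10:117282273-117282522, minus strand: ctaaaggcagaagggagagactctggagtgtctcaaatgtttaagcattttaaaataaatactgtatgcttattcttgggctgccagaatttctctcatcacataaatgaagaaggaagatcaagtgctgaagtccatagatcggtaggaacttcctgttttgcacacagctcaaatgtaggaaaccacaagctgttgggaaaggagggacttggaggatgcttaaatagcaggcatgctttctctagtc
F13a1, chr13:37050245-37050494, minus strand: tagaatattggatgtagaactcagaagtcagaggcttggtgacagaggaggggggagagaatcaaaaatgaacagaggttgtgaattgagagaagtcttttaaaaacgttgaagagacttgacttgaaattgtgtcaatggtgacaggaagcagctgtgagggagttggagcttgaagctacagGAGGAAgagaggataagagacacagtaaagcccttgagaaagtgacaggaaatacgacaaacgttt
The core begins 30 bases before the start in C1qb, 193 bases before it in C1qc and 66 bases before it in F13a1, and is absent from the Lyz2 window. Over the whole window of 250 bases before to 50 after the start, GAGGAA on either strand was found in 5 of the 7 promoters, against 28.3% of all 32851 promoters in the table. The longer GAGGAAGT, which contains the core, was found in 2 of the 7 against 3.2% of all promoters, and TATAAA in 0 of the 7 against 13.6%. These are matches of letters and say nothing of binding.

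In NOD islets 9 of the 10 macrophage genes were higher than in the mean of the other 7 strains, by 1.68 to 4.95 on the log2 scale, and F13a1 was lower, by 0.83 on that scale. Lyz2, Spi1 and Itgax stood furthest above the other strains, and C1qa and Adgre1 were raised least. The calls come from edgeR's quasi-likelihood test over all 15191 genes tested, with a Benjamini-Hochberg adjusted p under 0.05. Across those genes 35.8% were called higher in NOD in the same contrast, and a strain effect over all 8 strains was called for 97.4%, so that a strain effect as such, which all 10 genes had, sets them apart from few genes.

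**Figure D1:**
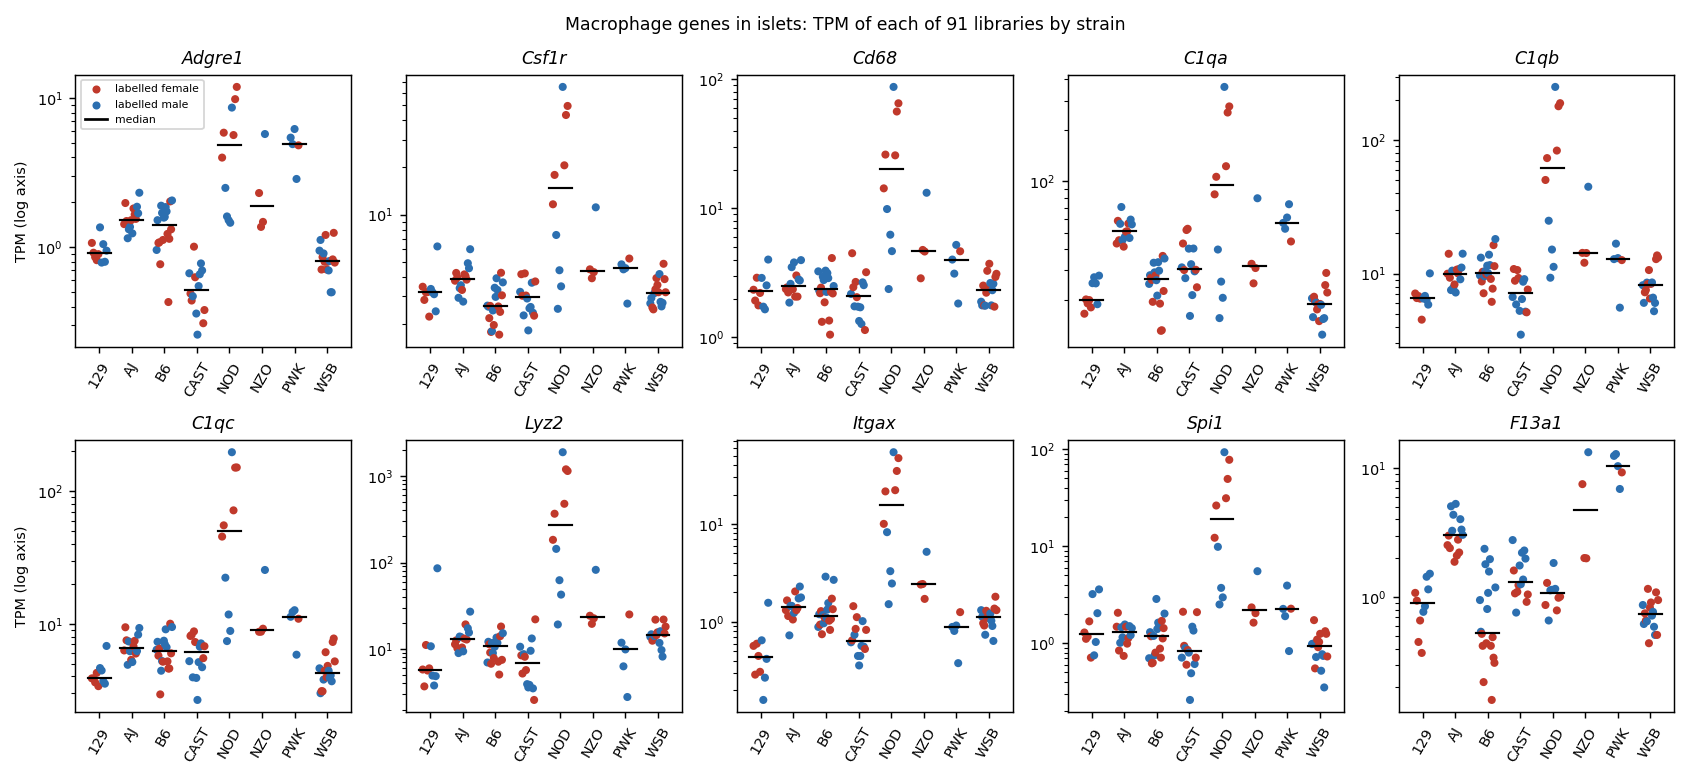
Level of each macrophage gene in each of the 91 libraries, in TPM on a log axis, by strain. Points are libraries, red for those labelled female and blue for male, and black bars are strain medians. For Lyz2, Itgax and Spi1, 7 of the 10 NOD libraries lie above every library of the other strains. For F13a1 none does, and PWK and NZO have the highest medians.

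Lyz2 carried the largest difference. Its level in NOD ran from 19.2 over a median of 274.6 to 1882 TPM, whereas the 81 libraries of the other strains ran from 2.58 over a median of 11.4 to 85.8 TPM. The lowest NOD libraries lay inside the range of the other strains and the other 7 lay above it. The log2 fold change of NOD against the mean of the other 7 strains was 4.95 (SE 0.28, adjusted p = 1.4e-28, edgeR). Lyz2 has a close copy, Lyz1, whose reads the counting may share. Lyz1 was listed at 0.19 to 26.2 TPM in NOD and at 0 to 5.45 TPM elsewhere. Its median share of the summed TPM of Lyz1 and Lyz2 was 11.2% in CAST and 11.9% in PWK. That share was 1.11% in NOD and 0 to 1.25% in the remaining strains, and its effect on the Lyz2 levels was not tested.

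Spi1 followed with a level of 2.51, 19.3 and 93.2 TPM (lowest, median, highest) in NOD and 0.26, 1.15 and 5.53 TPM elsewhere. Its log2 fold change was 4.10 (SE 0.20, adjusted p = 8.23e-32, edgeR). Itgax stood at 1.52, 15.8 and 54 TPM in NOD against 0.16, 1.10 and 5.20 TPM elsewhere, a log2 fold change of 3.88 (SE 0.17, adjusted p = 8.81e-35, edgeR). For both genes 7 NOD libraries exceeded all 81 others, and the highest library outside NOD was the male NZO library 90.

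Cd68 and Csf1r were raised less. Cd68 had 2.37, 20.02 and 87.4 TPM in NOD and 1.05, 2.44 and 13.2 TPM elsewhere (log2 fold change 3.08, SE 0.16, adjusted p = 8.45e-31, edgeR). Csf1r had 2.50, 14.8 and 65.4 TPM in NOD and 1.71, 3.19 and 11.1 TPM elsewhere (log2 fold change 2.27, SE 0.14, adjusted p = 1.45e-25, edgeR). In each case 6 of 10 NOD libraries lay above all others.

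The C1q genes did not rise evenly. C1qc stood at 7.40, 50.4 and 197.3 TPM in NOD against 2.66, 5.84 and 25.5 TPM elsewhere (log2 fold change 3.09, SE 0.16, adjusted p = 1.27e-31, edgeR). C1qb stood at 9.32, 61.9 and 250.9 TPM against 3.49, 9.07 and 44.8 TPM (2.79, SE 0.15, adjusted p = 2.16e-29, edgeR). C1qa, the most abundant of the 10 genes in the other strains, stood at 15.7, 95.3 and 360.8 TPM against 12.5, 27.9 and 79.7 TPM (1.68, SE 0.15, adjusted p = 8.28e-18, edgeR). For each of them 6 NOD libraries lay above all 81 others.

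Among the genes higher in NOD, Adgre1 was the one whose NOD libraries overlapped the other strains most. It stood at 1.46, 4.82 and 11.9 TPM in NOD and 0.26, 1.08 and 6.20 TPM elsewhere, and 3 NOD libraries exceeded all others (log2 fold change 1.72, SE 0.13, adjusted p = 2.88e-21, edgeR). Against single strains it was higher in NOD than in 6 of 7. The difference from PWK was 0.09 on the log2 scale (SE 0.23, adjusted p = 0.759, edgeR), with PWK libraries at 2.87 to 6.20 TPM. The levels of NOD and PWK overlapped and no difference between them was detectable at this spread.

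F13a1 was the exception. Its NOD libraries lay between 0.66 and 1.84 TPM (median 1.07) and none was above the highest of the other strains, where the range was 0.16 to 13.3 TPM (median 1.15). The log2 fold change against the mean of the 7 strains was -0.83 (SE 0.19, adjusted p = 9.8e-05, edgeR). That mean is set by a few strains, since NOD was lower than PWK by 2.84, NZO by 2.47, AJ by 1.36 and CAST by 0.53 on the log2 scale, and higher than B6 by 0.49, all called. Differences of NOD from 129 (0.52, adjusted p = 0.055, edgeR) and WSB (0.35, adjusted p = 0.149, edgeR) were not called.

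A stricter reading asks for a gene to be higher in NOD than in each of the other 7 strains. It was met by 8 of the 10 genes, all but Adgre1 and F13a1, and by 11.3% of all genes tested. Against only 129, NZO and PWK, whose library numbers fall in the same range as those of NOD, the same 8 genes were higher than in each, as were 13.1% of all genes. Across the 8 genes the smallest difference from any strain was that of C1qa from PWK (0.89 on the log2 scale, adjusted p = 0.00455, edgeR) and the largest that of Lyz2 from CAST (5.54).

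**Figure D2:**
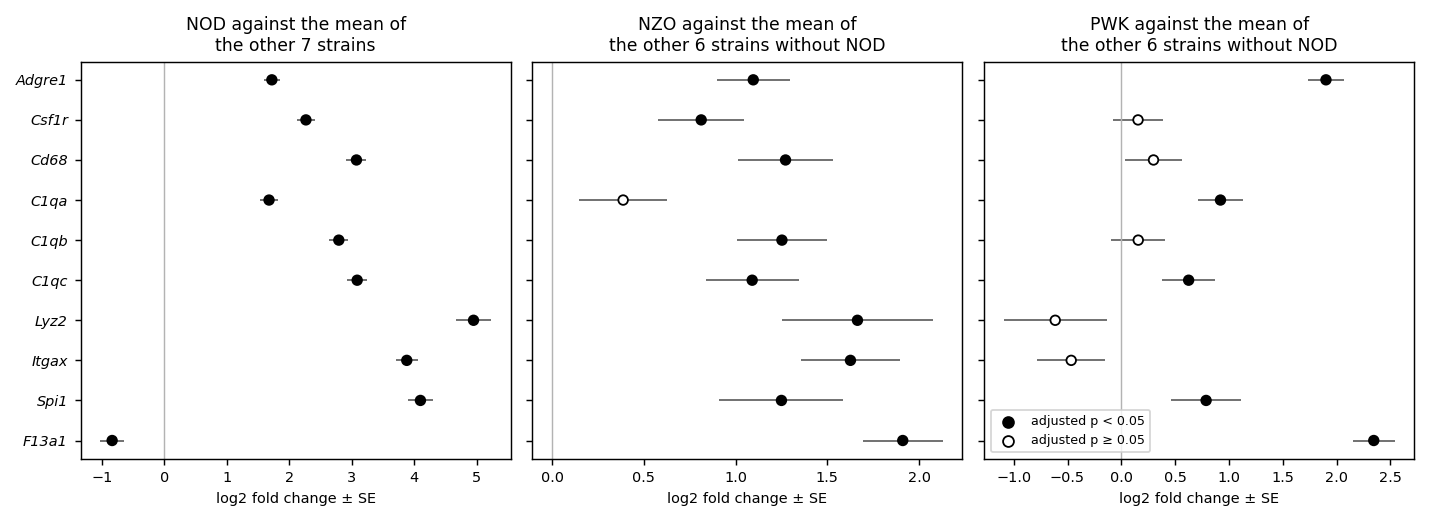
Fitted log2 fold change of each macrophage gene (points, with the SE as bars) in NOD against the mean of the other 7 strains, and in NZO and PWK against the mean of the remaining 6 strains without NOD. Filled points have an adjusted p under 0.05. In NOD 9 genes are higher and F13a1 is lower, in NZO all but C1qa are higher, and in PWK F13a1 and Adgre1 stand out.

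The NOD libraries were far from uniform. The SEs and p-values above rest on an estimate of spread shared by all strains, so they do not give the NOD spread alone. Lyz2 differed 97.9-fold between the highest and the lowest NOD library, the other genes raised in NOD differed 8.13-fold (Adgre1) to 37.1-fold (Spi1), and F13a1 differed 2.79-fold. The same libraries were high for the raised genes. Library 97 was highest for all of them but Adgre1, with libraries 99 and 100 next to it, and library 94 or 96 was lowest. The summed level of the 10 genes ran from 63.3 to 3001 TPM (median 558.3) in NOD and from 31.2 to 286.3 TPM (median 63.9) elsewhere. In RNA from whole islets, more macrophages and more transcript in each macrophage cannot be told apart.

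Markers of other leukocytes and of some other cell types were higher in NOD as well, in a contrast that called 35.8% of all genes higher. Ptprc, which codes for CD45 and is made by all leukocytes, stood at 2.46, 40.5 and 217.8 TPM in NOD and at 0.44, 1.33 and 18.2 TPM elsewhere, a log2 fold change of 4.61 (SE 0.25). T cell genes summed to 5.31 to 756.9 TPM in NOD and 0.57 to 38.6 TPM elsewhere, with 7 of 7 tested genes higher. Lymph node stroma genes, which also mark organised lymphoid tissue outside nodes, summed to 12.4 to 1590 TPM in NOD and 0.77 to 153.2 TPM elsewhere, with 3 of 3 tested higher. B cell genes (5 of 5), dendritic cell genes (7 of 7), fibroblast genes (6 of 6) and acinar genes (8 of 8) were higher in NOD too, while 5 of 7 beta cell genes were lower. The part of these other cells in the macrophage gene levels was not tested.

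Set against Ptprc in the same library, none of the macrophage genes had a higher median in NOD than over the 81 libraries of the other strains pooled. The median ratio of Lyz2 to Ptprc in TPM was 7.97 in NOD and 8.22 elsewhere. For Spi1 it was 0.53 against 0.85, for Itgax 0.39 against 0.83 and for Cd68 0.54 against 1.71. Single strains differed in this ratio, and NOD lay above some of them for 3 genes. Its Lyz2 median exceeded those of CAST (7.11), 129 (5.05) and PWK (2.58), its Itgax median those of PWK (0.28) and 129 (0.27), and its Spi1 median that of PWK (0.50). The ratio was further apart for C1qa, with 2.29 against 21.2, for Adgre1 with 0.12 against 0.85 and for Csf1r with 0.41 against 2.49. F13a1 had 0.03 in NOD and 1.012 elsewhere. Against the pooled medians, ratios in NOD thus ranged from close for Lyz2 to well under for C1qa and F13a1, and no test was run on them.

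**Figure D3:**
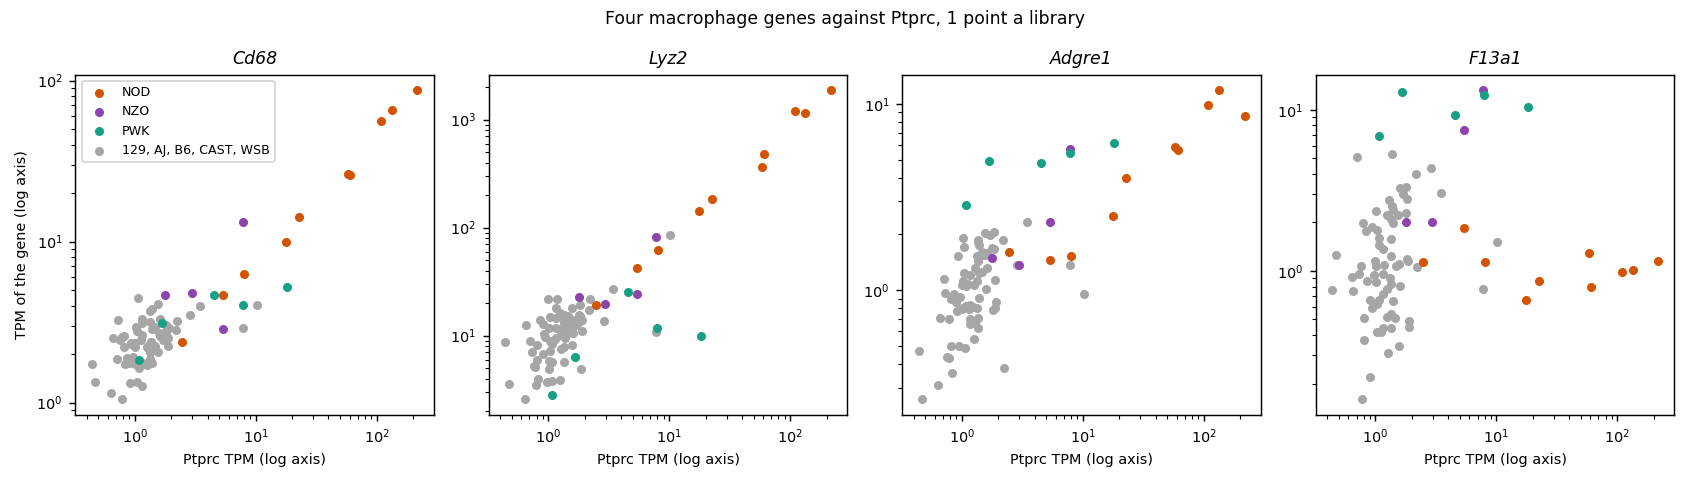
TPM of Cd68, Lyz2, Adgre1 and F13a1 against TPM of Ptprc in the same library, both on log axes, with 1 point a library and NOD, NZO and PWK in colour. NOD points of Cd68, Lyz2 and Adgre1 rise with Ptprc over its NOD range of 2.46 to 217.8 TPM, while F13a1 stays between 0.66 and 1.84 TPM.

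The make-up of the summed level differed accordingly. Lyz2 made up a median of 52.8% of the summed TPM of the 10 genes in NOD (30.4 to 62.7%) and 16.2% elsewhere (2.71 to 57.8%). C1qa made up 14.98% in NOD (12.02 to 24.8%) and 44.4% elsewhere (18.8 to 71.2%). F13a1 made up 0.20% in NOD and 8.08% in PWK, the highest median of any strain. Adgre1 likewise had its highest share in PWK, at 4.23%.

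**Figure D4:**
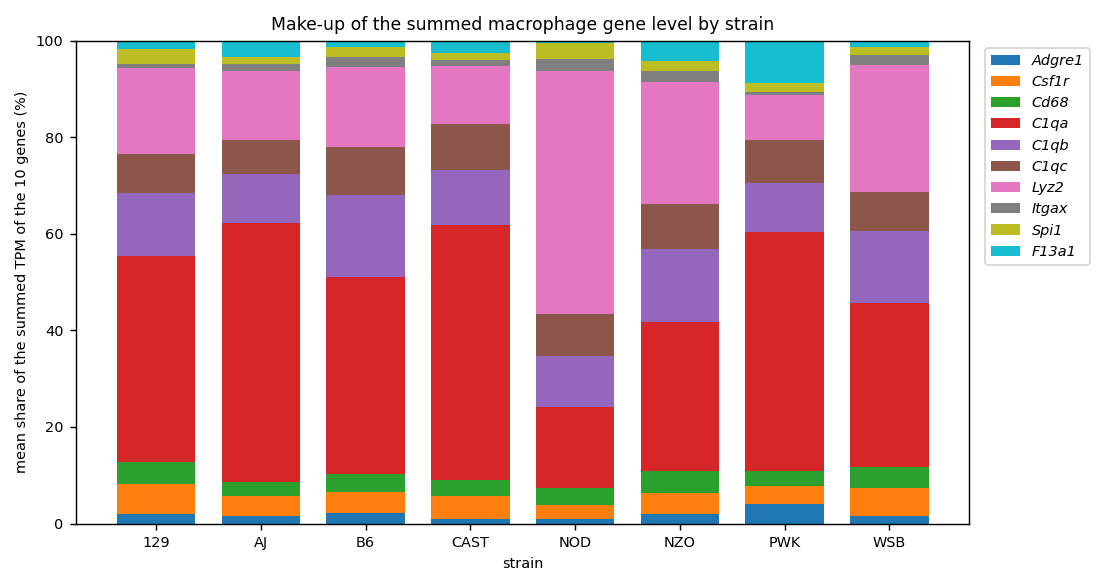
Mean share of each macrophage gene in the summed TPM of the 10 genes, in percent, by strain, with the shares of each library averaged over the strain. Lyz2 fills 50.4% of the NOD bar, and C1qa is the largest part in 129, AJ, B6, CAST, PWK, NZO and WSB.

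By labelled sex, NOD females lay higher than NOD males for most of the genes, with male library 97 as the exception. Lyz2 stood at 182.9, 366.3, 477.1, 1194 and 1142 TPM in the females (libraries 91, 92, 98, 99 and 100) and at 143.8, 19.2, 62.4, 42.6 and 1882 TPM in the males (libraries 93 to 97). Library 97, labelled male, had the highest level of all, and the other males lay below every female. Csf1r showed the same order, with 11.6, 17.9, 20.6, 43.3 and 49.5 TPM in females and 7.41, 2.50, 4.41, 3.48 and 65.4 TPM in males. As labelled, the male minus female difference was called for Adgre1 alone (-0.91 on the log2 scale, SE 0.23, adjusted p = 0.0271, edgeR), and 0.211% of all genes were called higher in NOD females. The call depended on single libraries. With library 94, 95, 96, 99 or 100 left out, edgeR called 0 of the 10 genes, and only 0.00658% to 0.612% of all genes. In those fits 5 to 6 of the 10 genes nevertheless had an unadjusted p under 0.05. With library 91 left out Adgre1 and C1qa were called, with 4.72% of all genes, and with library 97 left out all 10 genes were, with 33.2% of all genes.

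Libraries 97 and 100 were those whose sex markers opposed their labels. Without them, the 4 remaining NOD females and 4 remaining males did not overlap for any gene but F13a1, and all 10 genes were called. Library 100, labelled female but with the markers of a male, lay above males 93 to 96 for the 9 genes other than F13a1, so that the sexes would overlap if it were taken by its markers. Females were higher for 9 of them, by 2.11 for Lyz2 (SE 0.56, adjusted p = 0.00313), 1.82 for C1qc, 1.81 for C1qb, 1.78 for Spi1, 1.63 for C1qa and Cd68, 1.62 for Itgax, 1.49 for Csf1r and 1.02 for Adgre1 on the log2 scale. F13a1 was higher in males, by 0.97 (SE 0.31, adjusted p = 0.0145). These fitted differences are on the scale of upper-quartile scaled counts. On the log2 TPM scale the means of the same libraries differed by 1.80 (Adgre1) to 3.09 (Lyz2) for the 9 genes higher in females and by 0.21 for F13a1, so the size depends on the scale and for F13a1 most of the difference was not present in TPM. In the same fit 14.2% of all genes were called higher in NOD females. The interaction of strain and sex over 129, AJ, B6, CAST, NOD and WSB, the strains with enough libraries of both sexes, was then called for all 10 genes and for 22.3% of all genes, against F13a1 alone and 5.9% of all genes with every library kept. Leaving out library 97 by itself gave 10 genes for the interaction and leaving out library 91 gave 2. The share of all genes called for the interaction in these fits is not given, so the counts cannot be set against it.

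The other cell types differed between the same libraries. The 4 remaining females held 98.8 to 339.5 TPM of T cell genes and the 4 remaining males 5.31 to 51.3 TPM. Acinar genes, which code for digestive enzymes of the exocrine pancreas, summed to 25090 to 133000 TPM in those females and 116000 to 269900 TPM in those males. Their part in the sex difference was not tested. Without libraries 97 and 100, NOD was higher than the mean of the other strains for the same 9 genes, by 1.23 (C1qa) to 4.31 (Lyz2), and lower for F13a1 (-0.72, adjusted p = 0.00213), while 32.8% of all genes were called higher.

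Outside NOD the strains differed as well. A strain effect over the remaining 7 strains was called for all 10 genes and for 94.9% of all genes. Without NZO library 90 it was called for 9, since Lyz2 then had an adjusted p of 0.091 (edgeR). The share of all genes called in that fit is not given. Of the 210 comparisons of a gene between 2 of these strains, 115 were called (54.8%, against 46.7% over all genes), and 79 without NZO library 90 (37.6%, against 44.2% over all genes). Adgre1 differed in 19 of 21 pairs of strains, F13a1 in 17, C1qa in 15, Itgax in 14, C1qc in 13, C1qb in 11 and Spi1 in 9. Cd68 and Lyz2 differed in 6 and Csf1r in 5. Over AJ, B6, CAST and WSB alone, whose libraries span both lower number ranges, a strain effect was called for 8 of the 10 genes and 84% of all genes. Cd68 (adjusted p = 0.889, edgeR) and Spi1 (adjusted p = 0.47, edgeR) were the ones not called.

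Adgre1 ran, from the highest strain to the lowest by median normalized count, from NOD and PWK over NZO, B6, AJ, WSB and 129 to CAST. Its TPM median was 4.91 in PWK, 1.90 in NZO, 1.54 in AJ, 1.42 in B6, 0.91 in 129, 0.81 in WSB and 0.52 in CAST. Neighbours that did not differ beyond their spread were NOD and PWK, B6 and AJ (adjusted p = 0.969), and WSB and 129 (adjusted p = 0.553). PWK exceeded CAST by 2.85 on the log2 scale (SE 0.21, adjusted p = 4.03e-21, edgeR), and the libraries of these strains did not overlap.

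F13a1 had the widest spread between strain medians outside NOD. Median TPM was 10.3 in PWK (6.89 to 12.8), 4.76 in NZO (2.00 to 13.3), 3.02 in AJ (1.88 to 5.28) and 1.31 in CAST (0.76 to 2.77). It was 0.90 in 129 (0.37 to 1.52), 0.73 in WSB (0.44 to 1.16) and 0.53 in B6 (0.16 to 2.37). PWK and NZO did not differ detectably (adjusted p = 0.407), nor did NOD, WSB, 129 and B6 as neighbours in that order (adjusted p = 0.149, 0.546 and 0.94). Each of the steps from NZO to AJ, AJ to CAST and CAST to NOD was called. PWK exceeded B6 by 3.34 on the log2 scale (SE 0.23, adjusted p = 1.37e-22, edgeR).

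C1qa had its own order. Below NOD came PWK with a median of 57.02 TPM (44.3 to 73.5), AJ with 50.7 (41.3 to 70.8), NZO with 31.8 (25.1 to 79.7) and CAST with 30.7 (16.1 to 52.6). B6 had 26.7 (13.2 to 36.4), 129 had 20.1 (16.6 to 27.9) and WSB 18.9 TPM (12.5 to 28.9). All AJ libraries lay above all WSB and B6 libraries. By median normalized count CAST came before NZO, and in that order PWK, AJ, CAST and NZO did not differ as neighbours (adjusted p = 0.373, 0.0856 and 0.627, edgeR).

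The ratio of C1qa to C1qb, whose chains assemble in one complex, differed between strains too. The median ratio in TPM was 1.53 in NOD (1.42 to 1.84), 2.12 in NZO, 2.26 in WSB, 2.35 in B6, 3.15 in 129, 4.44 in PWK, 4.65 in CAST and 5.10 in AJ (3.96 to 7.48). Every AJ library lay above every NOD, NZO, WSB and B6 library. PWK library 69 had the highest ratio of all, 13.2. It held the highest C1qa level of its strain, 73.5 TPM, but the lowest C1qb and C1qc levels, 5.56 and 5.84 TPM. Its acinar genes, at 265900 TPM, were also the highest of its strain and its beta cell genes, at 181100 TPM, the lowest.

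NZO was higher than the mean of the remaining 6 strains without NOD for 9 of the 10 genes, in a contrast that called 38.6% of all genes in either direction. F13a1 was higher by 1.91 (SE 0.22, adjusted p = 8.4e-12, edgeR), Lyz2 by 1.66 and Itgax by 1.63. Cd68 was higher by 1.27, C1qb and Spi1 by 1.25, Adgre1 by 1.10, C1qc by 1.09 and Csf1r by 0.81, and C1qa was not called (0.39, adjusted p = 0.203, edgeR). NZO libraries 86, 88, 89 (female) and 90 (male) held 24.2, 19.6, 22.7 and 82.3 TPM of Lyz2, and 2.87, 4.76, 4.63 and 13.2 TPM of Cd68. F13a1 stood at 7.51, 2.01, 2.00 and 13.3 TPM in the same order. Library 90 was thus highest for these 3 genes, and for F13a1 library 86 came next.

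Other cell types moved with these genes in NZO. Fibroblast genes (6 of 6), endothelial genes (5 of 5), pan-leukocyte genes (5 of 6) and ductal genes (3 of 4) were higher, and 3 of 4 alpha cell genes were lower. Their part was not tested.

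Most of the NZO calls rested on library 90. Without library 90 only Itgax (0.99, SE 0.33, adjusted p = 0.0171) and F13a1 (1.503, SE 0.27, adjusted p = 4.84e-06) were called higher, while 15.5% of all genes were. Lyz2 then stood at 0.84 (adjusted p = 0.246) and Cd68 at 0.61 (adjusted p = 0.145). Library 86 held the most lymph node stroma transcripts of the strain, 153.2 TPM against 14.04 to 37 TPM in the others. Without libraries 86 and 90, 11.9% of all genes and none of the 10 genes were called higher, with F13a1 at 0.63 (adjusted p = 0.185) and Itgax at 0.99 (adjusted p = 0.0653). In that edgeR fit 2 of the 10 genes had an unadjusted p under 0.05, Itgax (0.0145) and Cd68 (0.025).

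In PWK, F13a1 and Adgre1 stood furthest above the other strains. Its 5 libraries (75, female, and 66 to 69, male) held 9.26, 12.4, 12.8, 10.3 and 6.89 TPM of F13a1 and 4.82, 5.43, 4.91, 6.20 and 2.87 TPM of Adgre1. Lyz2 by contrast stood at 25.1, 11.8, 6.31, 9.90 and 2.79 TPM, inside the range of the other strains. Against the mean of the remaining 6 strains, F13a1 was higher by 2.35 (SE 0.20, adjusted p = 3.29e-18), Adgre1 by 1.90 (SE 0.17, adjusted p = 8.93e-17), C1qa by 0.92, Spi1 by 0.79 and C1qc by 0.63 (edgeR), and 46.3% of all genes were called in either direction. Csf1r (0.16), Cd68 (0.30), C1qb (0.16), Itgax (-0.47) and Lyz2 (-0.61) were not called.

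In PWK T cell genes (7 of 7), B cell genes (5 of 5), pan-leukocyte genes (5 of 6), alpha cell genes (4 of 4) and acinar genes (5 of 8) were higher too, and their part was not tested. Libraries 66 and 68 carried the most lymphoid transcripts of PWK, with 84.7 and 123.3 TPM of lymph node stroma genes against 2.58 to 47.99 TPM in the other 3. Without them F13a1 (2.39, SE 0.24, adjusted p = 5.04e-14), Adgre1 (1.75, SE 0.21, adjusted p = 8.5e-11) and C1qa (1.007, SE 0.26, adjusted p = 0.0015) were still called higher, as were 17.9% of all genes. C1qc (0.51, adjusted p = 0.214) and Spi1 (0.48, adjusted p = 0.409) were not. In the same edgeR fit 0 of 7 T cell genes and 0 of 5 B cell genes were called, and 0 had an unadjusted p under 0.05, with medians of -0.18 and 0.04 in place of 2.27 and 2.19.

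At the other end, 129 was lower than the mean of the remaining 6 strains for 7 of the 10 genes (46.9% of all genes called in either direction). F13a1 stood at -1.58 and Itgax at -1.53, C1qc at -1.02, C1qa at -0.94, C1qb at -0.92, Adgre1 at -0.91 and Cd68 at -0.59 on the log2 scale. Fibroblast genes (6 of 6) and acinar genes (7 of 8) were lower in 129 as well, while T cell genes (7 of 7) and alpha cell genes (3 of 4) were higher, and their part was not tested. Lyz2 was at 3.7 to 11.1 TPM in 9 of its libraries and at 85.8 TPM in library 85, which also held 38.4 TPM of T cell genes. Library 81 had 27.9 TPM of T cell genes and 149.5 TPM of lymph node stroma genes. Library 85 was the highest of 129 for Lyz2, Csf1r, Cd68, C1qb, C1qc and Itgax, and library 81 for Adgre1. Leaving them out therefore lowers 129 for these genes by the choice of libraries itself. Without libraries 81 and 85 all 10 genes were lower in 129, Lyz2 by 1.51 (SE 0.35, adjusted p = 0.000279), Spi1 by 0.70 (adjusted p = 0.0461) and Csf1r by 0.56 (adjusted p = 0.0136) among them, and 17.5% of all genes were called lower. In that edgeR fit 0 of 7 T cell genes were called (1 at an unadjusted p under 0.05), and their median was -0.70 in place of 1.58. Without the libraries whose sex markers opposed their labels, which left 4 of the 10 libraries of 129, 5 genes were lower (Adgre1, C1qa, C1qc, Itgax and F13a1), against 7.85% of all genes, and Lyz2 stood at 0.79 (adjusted p = 0.198, edgeR).

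The remaining strains are CAST, WSB, B6 and AJ. CAST was lower for Adgre1 (-1.43, adjusted p = 3.51e-14) and Itgax (-0.57, adjusted p = 0.0133), with 53.1% of all genes called in either direction. WSB was lower for F13a1 (-1.39), C1qa (-0.82), Adgre1 (-0.76), Spi1 (-0.68) and C1qc (-0.56), against 53.5% of all genes. B6 was lower for F13a1 (-1.55), Csf1r (-0.38) and C1qa (-0.34), against 47.2%. AJ was higher for C1qa and F13a1, by 0.61 each, against 52.7%. Markers of other cells differed in these strains too. In CAST acinar genes were higher (8 of 8) and endothelial (5 of 5) and T cell genes (5 of 7) lower. In WSB endothelial genes were higher (5 of 5) and pan-leukocyte (5 of 6), T cell (5 of 7) and B cell genes (4 of 5) lower. In B6 acinar genes were higher (6 of 8) and fibroblast (6 of 6), endothelial (5 of 5), T cell (6 of 7) and pan-leukocyte genes (4 of 6) lower. In AJ acinar genes were lower (8 of 8). Of the fibroblast genes 3 of 6 were higher there, no larger a share than the 52.7% of all genes called in either direction. Their part was not tested.

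F13a1 was also the one gene of the 10 with a sex effect across strains. It was higher in males by 0.79 on the log2 scale (SE 0.12, adjusted p = 2.72e-06, edgeR), in a contrast that called 4% of all genes. The differences of the other 9 genes lay between -0.13 and 0.06. In B6 the 9 females ran from 0.16 over a median of 0.42 to 0.52 TPM and the 9 males from 0.54 over 1.19 to 2.37 TPM, so every male lay above every female (1.59, adjusted p = 9.88e-07, edgeR). In AJ the 7 females ran from 1.88 over 2.40 to 3.00 TPM and the 7 males from 3.04 over 4.02 to 5.28 TPM, again without overlap, yet the difference within this strain was not called (0.85, adjusted p = 0.13, edgeR). In WSB it was -0.17 and not called. The sex difference of F13a1 varied between strains (interaction adjusted p = 0.0034, edgeR). Without the 12 libraries whose sex markers opposed their labels, F13a1 was higher in males by 0.84 (SE 0.12, adjusted p = 5.16e-07, edgeR), the difference in WSB was -0.24 (not called), and the interaction had an adjusted p of 0.00167.

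**Figure D5:**
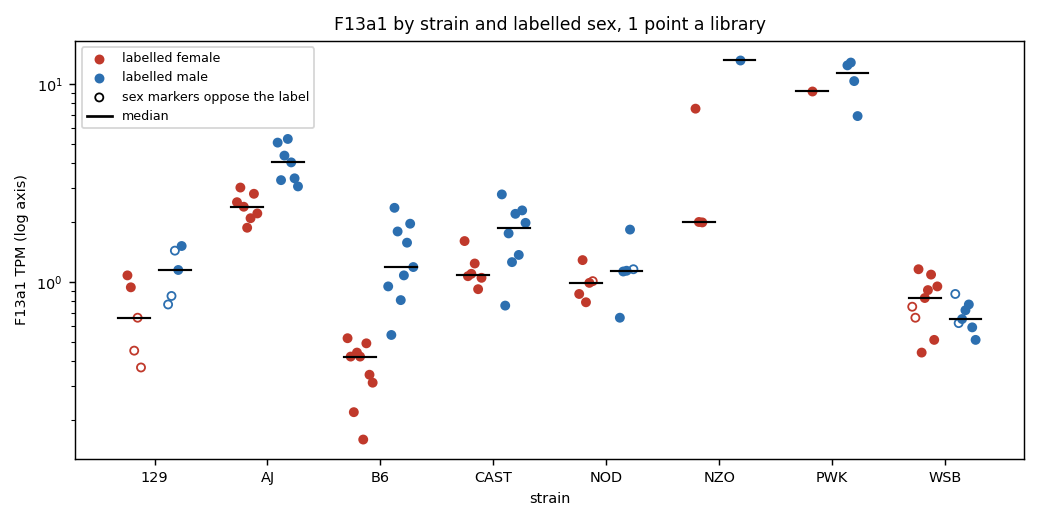
TPM of F13a1 on a log axis by strain and labelled sex, with 1 point a library, bars at the medians, and open points for libraries whose sex markers oppose the label. The males of B6 and of AJ lie above all females of their strain. PWK libraries lie above those of all strains but NZO, whose libraries spread from 2.00 to 13.3 TPM.

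Other macrophage and monocyte genes were counted in a list of 35, of which 27 passed the gene filter. In NOD 23 were higher, against 35.8% of all genes, 1 was lower and 3 were not called, with a median log2 fold change of 2.74 against 0.03 over all genes. Plac8 (4.62), Itgb2 (4.56), which codes for the integrin chain that pairs with CD11c, and Gpnmb (4.42) stood highest. Lyve1, known from lymphatic endothelium and some resident macrophages, was lower (-0.81). Without libraries 97 and 100 the counts were 23 and 1, and the median was 2.39.

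In NZO 22 of the 27 were higher and 1 was lower, where 38.6% of all genes were called in either direction, with a median of 1.37. Ccr2, the chemokine receptor that brings monocytes into tissue, stood at 3.10, Ly6c2, a surface protein of inflammatory monocytes, at 2.84 and Plac8 at 2.32. Without library 90, 11 were higher (15.5% of all genes) and 1 lower, with a median of 0.74, and without libraries 86 and 90, 9 were higher (11.9% of all genes) and 1 lower.

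PWK had 6 of the 27 higher and 6 lower, a share close to the 46.3% of all genes called in that contrast. Gpnmb (2.25) and Itgb2 (1.34) were among the higher genes, and Ccr2 stood lowest (-2.07). Without libraries 66 and 68 the counts were 3 and 4, with 17.9% of all genes called higher. In 129, 2 were higher, among them Lyve1 (1.45), and 7 were lower, of which Fcer1g, a signalling chain of Fc receptors, stood lowest (-1.62). These 9 of 27 are a smaller share than the 46.9% of all genes called in 129. Without libraries 81 and 85, 15 were lower, against 17.5% of all genes, and without the libraries with opposite sex markers 2 were lower and 2 higher.

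Genes of growth factors and attractants for macrophages, and their receptors, formed a list of 9 with 8 tested. In NOD 7 were higher (35.8% of all genes), among them Csf2rb, a receptor chain through which GM-CSF signals (5.21), the monocyte attractant Ccl2 (3.23) and Tgfbr2 (2.14). Both ligands of Csf1r were higher in NOD, Il34 by 1.84 (SE 0.15) and Csf1 by 1.15 (SE 0.10), and Cx3cl1 was lower (-0.42). In NZO 5 were higher, with Ccl2 at 2.73, Csf2rb at 1.96 and Il34 at 1.76, and 2 were lower, with Csf1 at -0.40 (38.6% of all genes called in either direction). Without library 90, 2 were higher (15.5% of all genes) and 1 lower.

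The genes whose levels ran most alike with the 10 genes were sought within strains, so that differences between strains could not set the order. Over the 81 libraries outside NOD, after each strain's mean was subtracted, the highest correlations with the mean of the 10 genes were those of Mpeg1 (r = 0.89), Ctss (0.85), H2-Ab1 (0.85), H2-Aa (0.84), Cd74 (0.84), Pld4 (0.80), Tgfbi (0.80), Cybb (0.79), H2-DMa (0.79) and Tyrobp (0.78). Mpeg1 codes for a pore-forming protein of macrophages, Ctss for a lysosomal protease, H2-Ab1, H2-Aa, Cd74 and H2-DMa for antigen presentation on MHC class II, and Cybb for a subunit of the NADPH oxidase. Of 15181 other genes, 26 had an r of at least 0.7. Ptprc had 0.67 and the acinar gene Cpa1 -0.11. These values describe libraries that share depth and tissue make-up, and no test was run on them.

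Each of the 10 genes was compared with the mean of the other 9 in the same way. C1qb (0.82), C1qc (0.80) and Csf1r (0.80) followed it most closely outside NOD, C1qa (0.47) less, and F13a1 least (0.24). On log2 TPM C1qa had 0.59 and F13a1 0.42 outside NOD, so these values depend on the scale, and F13a1 was still the lowest. Within the 10 NOD libraries the 9 other genes had an r of 0.93 to 0.998 and F13a1 had -0.94 on log2 normalized counts. On log2 TPM the 9 genes had an r of 0.97 to 0.994, while F13a1 had -0.26. In those libraries 2062 genes had an r of at least 0.9, Ptprc stood at 0.99 and Cpa1 at -0.77, so that the order in NOD is shared by many genes outside the set.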

How the data were processed

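Islet RNA was sequenced from both sexes of the 8 founder strains. The authors quantified reads with RSEM against mm10 and GENCODE gene models. They deposited, for each of 91 libraries, the expected count and the TPM of every gene, and replicates were not pooled. Strain and sex were taken from the labels. The 10 genes and all gene lists were chosen with earlier results of these data known, and the fits without named NOD, NZO, PWK and 129 libraries were chosen after seeing the data.

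Gene names were matched to GENCODE M21 (54079 of 54146 genes matched). Of 21710 protein-coding genes of the autosomes and the X chromosome, the 10% with the lowest variance were removed and genes non-zero in at least 85% of libraries kept, which left 15191 genes. Expected counts were rounded, scaled by the upper quartile and fitted with edgeR 4.0.16 (R 4.3.3, quasi-likelihood test, strain and sex as terms, Benjamini-Hochberg adjustment over all tested genes, threshold 0.05). Each strain was compared with the unweighted mean of others, and the SE was taken from the fold change and its F statistic. The code was tested on simulated data. Levels are given in TPM. Named genes were the 10 genes, the 10 most like them, and, from each list, the 3 highest and the lowest in the contrast described, with Ptprc, Csf1, Il34 and Lyz1. The values of 1 listed gene are not reported here. Alternatives were TMM and DESeq2 size factors, other gene filters, limma 3.58.1 (voom, and log2 of TPM plus 0.1), DESeq2 1.42.0, a log2 fold change of at least 1, no sex term, the number range as a term, and leaving out libraries.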

Additional observations from a re-analysis of the deposited data

Results flagged for a closer look

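Levels were checked for single libraries far from the rest of their strain in the strains with 4 to 10 libraries, with Dixon's criterion at 95%. Of 40 groups, 14 held such a library. The 10 genes were checked over the same libraries of each strain, so the groups are not independent and the count has no chance rate beside it. In 129, library 85 was highest for Lyz2 (85.8 TPM), C1qb (10.1), C1qc (6.80), Csf1r (6.26), Cd68 (4.01) and Itgax (1.57), and library 81 for Adgre1 (1.36). Library 85 also had the most T cell, B cell and pan-leukocyte transcripts of its strain, and library 81 the most lymph node stroma transcripts. In NZO, library 90 was highest for Lyz2 (82.3 TPM), C1qa (79.7), C1qb (44.8), C1qc (25.5) and Csf1r (11.1), and it had the most fibroblast (164.8 TPM against 48.7 to 67.08), plasma cell (129.4 against 44.7 to 66.5), pan-leukocyte (66.99 against 23.1 to 48.8) and neutrophil transcripts (11.4 against 2.45 to 3.23) of its strain. It is also the only male NZO library, so that library and sex cannot be told apart. In PWK, library 69 was lowest for C1qc (5.84 TPM), and it had the most acinar transcripts of its strain. In NOD, library 96 was highest for F13a1 (1.84 TPM). The part of these other transcripts in the levels was not tested.

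The male minus female difference of F13a1 differed between strains (interaction adjusted p = 0.0034, edgeR), from 1.59 on the log2 scale in B6 to -0.17 in WSB.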

How the results depend on the processing

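The counts of the 10 genes called were recomputed under each alternative, and 290 values stayed within 1.5 times the first count while 25 moved further. With a log2 fold change of at least 1, 70 pairs of strains without NOD were called in place of 115, 16 contrasts of a strain with the mean of the remaining 6 in place of 33, 3 genes over AJ, B6, CAST and WSB in place of 8, and 0 for sex and for sex within NOD in place of 1 each (edgeR). limma-voom called 71 pairs, 3 genes for the interaction of strain and sex and 9 for sex within NOD. limma on log2(TPM + 0.1) called 10 for the interaction and 9 for sex within NOD, and DESeq2 called 2 for the interaction. Without the libraries with opposite sex markers, and likewise without NOD libraries 97 and 100, 10 genes were called for both. Without NZO library 90 and PWK library 68, 74 pairs were called. Leaving out 1 library of NZO, PWK or 129 at a time (those of 129 added after seeing the data) gave 79 to 122 pairs, 27 to 37 contrasts with the mean of 6, 9 to 10 genes over 7 strains, and leaving out 1 of NOD gave 1 to 10 for the interaction and 0 to 10 for sex within NOD, where leaving out library 97 gave 10 for both, library 91 gave 2 for both and library 94, 95, 96, 99 or 100 gave 0 for sex within NOD (5 to 6 genes at an unadjusted p under 0.05). The lowest counts of pairs (79), of contrasts with the mean of 6 (27) and of genes over 7 strains (9) came without NZO library 90. These are counts among the 10 genes, given without the share of all genes in each fit. The cause of these shifts was not tested.

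Taken relative to Ptprc, the log2 ratio of the NOD median to the median of the other strains turned below 0 for Adgre1 (-2.81), Csf1r (-2.61), Cd68 (-1.67), C1qa (-3.21), C1qb (-2.18), C1qc (-1.78), Lyz2 (-0.045), Itgax (-1.08) and Spi1 (-0.68), and stood at -5.09 for F13a1. The fitted NOD difference kept its direction for each of the 10 genes under the alternatives run, and its call except for F13a1, which does not reach a log2 fold change of 1 (9 genes called in place of 10). On log2 TPM in place of normalized counts, a change of scale chosen after seeing the data, the r of F13a1 with the other 9 genes over the NOD libraries moved from -0.94 to -0.26. No paired analysis was possible because the libraries carry numbers that are not shared between strains or sexes. Depth limits the low genes most, with a lowest expected count of 5 for Spi1, 15 for F13a1 and 16 for Itgax.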
